A study of Mus musculus with 30 samples.

Results

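The liver response to 5 days of CP-865520 was measured by setting 4 arrays from treated mice against 4 from vehicle mice, chosen by array title out of the 30 arrays of the series. Male C57Bl/6 mice received CP-865520, described as a piperidine agonist of PPAR-alpha, at 1 mg/kg per day for 5 days, and the controls received water. The other arrays hold the same compound and its vehicle at 24 h, and CP-868388 and CP-775146 at both times. Each array was hybridised with biotin-labelled RNA from 1 frozen liver, so that the replicates were separate animals, as the series counts them. The route of dosing and the age of the mice were not given in the sources used here.

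PPAR-alpha is a nuclear receptor that binds DNA as a partner of the retinoid X receptor and switches on genes for the uptake and oxidation of fatty acids. In rodent liver its agonists increase the peroxisomes and raise the enzymes that break down fatty acids there, in mitochondria and in the endoplasmic reticulum. In bulk liver, a lower level of a transcript in each cell cannot be told apart from fewer cells that carry it.

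The array carries 12488 probe sets, each a group of short probes whose signals are combined into 1 intensity. Of these, 66 are controls, and 12422 were examined for the response. No gene is named for any of these 12422 in the sources used here. Those discussed are given by ID, and no marker gene could be used to check the labelled tissue. Control probe sets whose ID carries a transcript's name are called by that name. The lowest deposited intensity is 50, called the floor here, and a group at 50 on every array has only an upper bound. Between 5768 and 6271 probe sets lay above the floor on the CP-865520 arrays and between 6442 and 6704 on the vehicle arrays.

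The response was broad, reached both directions and was for the most part moderate in size. Of 7963 probe sets tested, 3355 were called at an adjusted p under 0.05 (limma, Benjamini-Hochberg over all tested), which is 42.1% of them. CP-865520 raised 1218 (15.3%) and lowered 2137 (26.8%). The median log2 change was 0.63 among those that rose and -0.52 among those that fell, on the log2(intensity + 50) scale used for all log2 changes here, which understates changes of dim probe sets. Changes under 0.5 on that scale made up 411 of the rises and 978 of the falls. At least 2-fold, 264 rose (3.32% of all tested) and 284 fell (3.57%).

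Among the largest changes neither direction led throughout. At least 4-fold, 28 of the called rises and 43 of the called falls were found, at least 8-fold 9 and 4, and at least 16-fold 3 and 1. The floor limits the falls more than the rises, as 3252 of the 7963 tested probe sets had a vehicle mean under 100, from which a 2-fold fall cannot be reached on this scale. The compound and vehicle arrays did not overlap in 1011 of the called rises (83% of them) and in 1532 of the called falls (71.7%), where 13.4% and 20.5% of all tested probe sets were without overlap in these directions, 33.9% in either. Among the 2-fold calls, 262 of 264 rises and 277 of 284 falls were without overlap. The limma 95% interval of the change lay within 2-fold in either direction for 84.7% of all tested probe sets. Of all tested, 3447 had a mean under 100 over the 8 arrays, where 2-fold cannot be reached in either direction on this scale. Among the 4608 probe sets not called, 1 reached 2-fold.

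The balance of directions depended on how the arrays were scaled, for all calls and for those of at least 2-fold. The deposited arrays have nearly 1 mean, from 314.1 to 317.4 over these 8, and rises made up 36.3% of the calls. Rises were 50.1% of the calls after quantile normalization (1527 higher, 1520 lower), 56.6% when each array was centred on its median (2005 and 1535), 54.9% when centring used probe sets that exceeded 50 on each of the 30 arrays (1753 and 1441) and 67.9% when it was centred on the median of the tested probe sets (2620 and 1240). The median change over all tested probe sets moved from -0.08 to 0.10 in the last of these, and changes of about that size cannot be told apart from scaling. At least 2-fold, the rises and falls numbered 290 and 269, 325 and 240, 344 and 228, and 402 and 204 under these 4 scalings in the same order, where falls led with 264 and 284 on the deposited values. Each of the 264 rises and 284 falls was still called in its direction under all 4, though not always at 2-fold.

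**Figure D1:**
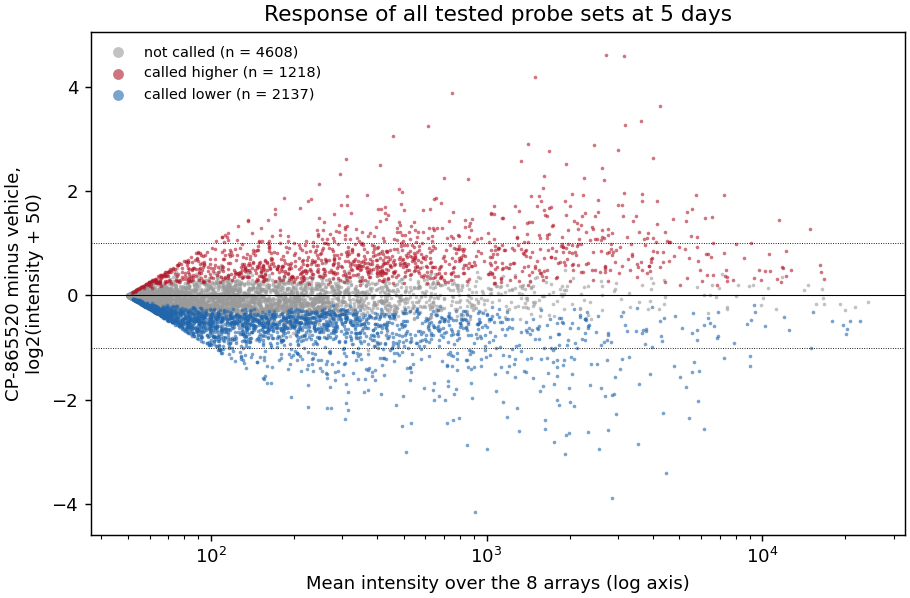
Each point is 1 of the 7963 tested probe sets, with its mean intensity over the 8 arrays on a log axis and its change (CP-865520 minus vehicle, log2 of intensity + 50) on the other axis. Red and blue mark the 1218 called higher and the 2137 called lower, dotted lines mark 2-fold, and the points fan out from the floor of 50, near which no large change can appear.

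Among probe sets with at most 2 of the 8 arrays at the floor and no overlap between groups, 97316_AT rose most. Its intensities were 158, 130, 160 and 226 on the vehicle arrays and 5349, 5074, 5527 and 5067 on the CP-865520 arrays. The compound arrays lay close together and far above every vehicle array. The mean went from 168.5 ± 40.7 to 5254 ± 224 (SD, n = 4 each), a ratio of 31.2, with a log2 change of 4.62 ± 0.11 (SE, limma adjusted p = 8.1e-21). At 24 h the same compound had given a log2 change of 3.91 against the vehicle of that time, and the further rise to 5 days of 0.70 passed the test of the difference (SE 0.16, limma adjusted p = 0.00519).

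The probe set 99083_AT fell most under the same conditions. It stood at 5663, 4801, 5108 and 5828 under vehicle and at 304, 434, 414 and 171 under CP-865520. No array of one group came near the other, and CP-865520 replicate 4 was the lowest. The vehicle mean was 16.2 times the compound mean (5350 ± 478 against 331 ± 121, SD, n = 4 each), with a log2 change of -3.89 ± 0.18 (SE, limma adjusted p = 7.36e-15). Much of this fall came after the first day, since the change at 24 h was -1.26 and the difference between the times was -2.63 (SE 0.26, limma adjusted p = 4.06e-07). Against the other compounds at 5 days the CP-865520 level was lower by a log2 of -0.70 than under CP-868388 (95% interval -1.08 to -0.32, adjusted p = 0.189) and by -0.33 than under CP-775146 (-0.80 to 0.13, adjusted p = 1). Neither difference passed, and the first interval lies below 0 only before adjustment.

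The next largest changes were of the same order. The 15 largest rises of this kind reached a log2 change of at least 2.51, from vehicle means between 71.5 and 1088 to compound means between 731 and 7932. The 15 largest falls were at -2.56 or below, from vehicle means between 948 and 10526 to compound means between 74.8 and 1809. The change from 24 h to 5 days passed the test in 17.3% of all tested probe sets. It passed in 10 of these rises and 12 of these falls. Each set was chosen for its size at 5 days, which by itself favours a larger value at that time.

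**Figure D2:**
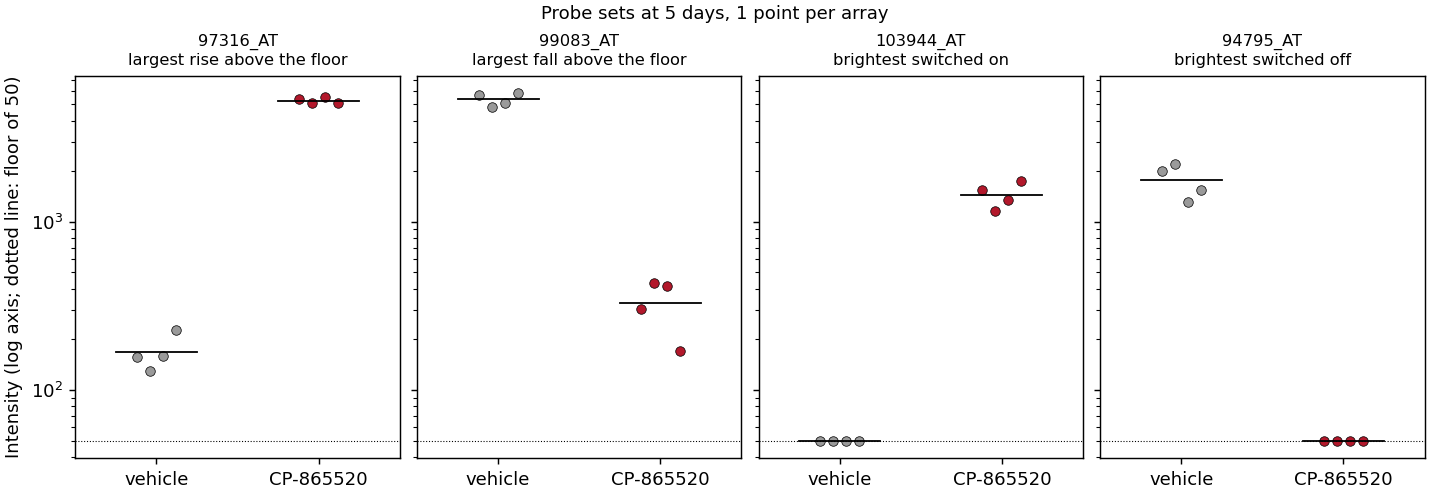
Intensity of 4 probe sets on a log axis, 1 point per array, with vehicle in grey, CP-865520 in red and a bar at the mean of each group of 4. The 4 arrays of each group lie together, and the floor of 50 (dotted) holds all vehicle arrays of 103944_AT and all CP-865520 arrays of 94795_AT.

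How often a probe set was called, and in which direction, went with its brightness. With intensity taken as the mean over the 8 arrays, 24.5% of the 3447 probe sets from 50 to 100 were called, 42.7% of the 1782 from 100 to 200, 56% of the 1500 from 200 to 500, 67.6% of the 556 from 500 to 1000, 77.7% of the 461 from 1000 to 3000 and 80.2% of the 217 above 3000. Rises climbed through these classes, with 5.05%, 11.8%, 22.7%, 32.2%, 44.9% and 49.8% called higher. Falls did not in these classes, with 19.5%, 30.9%, 33.3%, 35.4%, 32.8% and 30.4% called lower. Falls therefore outnumbered rises among dim probe sets, and rises outnumbered falls above 1000.

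In classes of the mean over the 8 arrays, the climb of the rises from 100 upwards was seen under every scaling tried. Above 3000, the share called higher was between 44.2% and 55.8% and the share called lower between 25.8% and 35%, over quantile normalization and the 3 centrings. Among the dimmest, the order turned: each of the 3 centrings gave more rises than falls between 50 and 100 (22.7% and 9.86%, 35.3% and 5.98%, and 14.5% and 7.95%), and quantile normalization gave nearly as many (8.62% and 9.02%). Brightness taken from the vehicle arrays alone was an alternative chosen after the data were seen. By it, falls outnumbered rises in every class. Falls then climbed through all classes, with 13.3%, 33%, 36.1%, 38.3%, 42.6% and 47.3% called lower. Rises climbed from 8.58% to 34.4% in the class from 1000 to 3000 and stood at 31.3% above 3000. A class by the mean over 8 arrays takes in the risen level of a probe set. A class by vehicle takes in the level before the fall. The order of directions among bright probe sets, and which direction climbed through all classes, therefore rest on this choice.

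Changes of at least 2-fold were concentrated among bright probe sets. Of those from 1000 to 3000, 17.1% rose and 14.8% fell by that much, and above 3000 18.4% and 9.68%. Between 100 and 200 the shares were 1.63% and 2.69%. Below 100 there were 0 in both directions, as a mean under 100 over the 8 arrays allows no 2-fold change on this scale. In classes of the vehicle mean, falls of that size outnumbered rises above 3000 (4.98% rose and 21.4% fell) and from 1000 to 3000 (12.1% and 19%). From 50 to 100, 36 probe sets rose by that much and 0 fell, as the floor allows no such fall there. The median standard error of the change, by the mean over the 8 arrays, was 0.085 from 50 to 100. It was 0.14 from 100 to 200 and 0.11 above 3000.

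**Figure D3:**
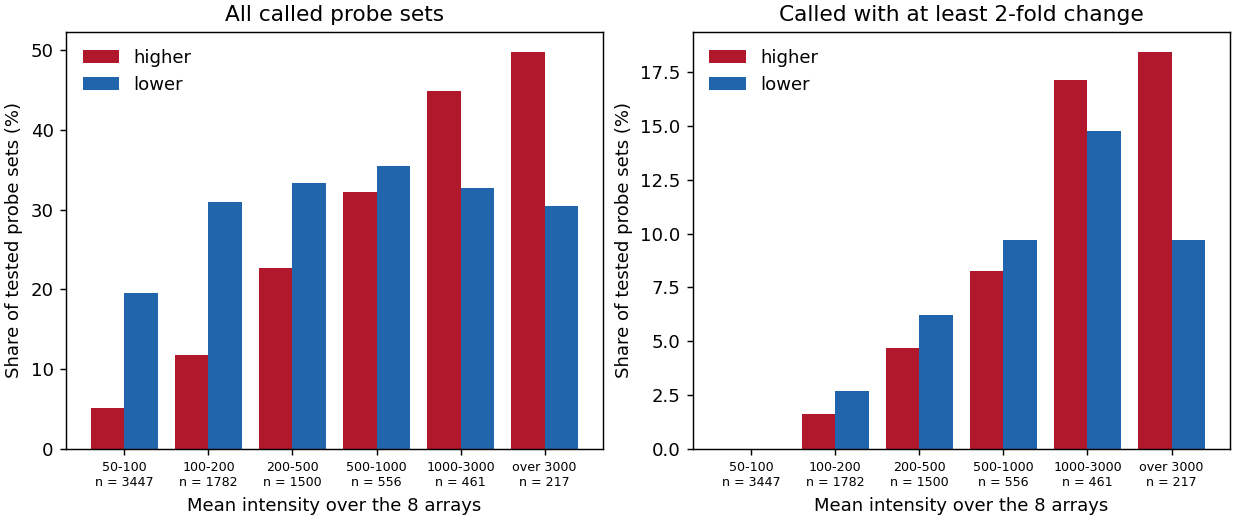
Bars give the share of tested probe sets called higher (red) or lower (blue) under CP-865520 in 6 classes of mean intensity over the 8 arrays, with the number tested under each class, for all calls on the left and for calls of at least 2-fold on the right. In these classes the share that rose climbs from 5.05% to 49.8% while the share that fell stays between 19.5% and 35.4%.

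A large part of the signal on the arrays changed place. The 1218 called rises held 23.7% ± 1.62 of the summed intensity on the vehicle arrays and 43.3% ± 2.85 on the CP-865520 arrays (SD, n = 4 each). The 2137 called falls held 39.2% ± 1.92 and 21% ± 1.77. The 264 rises of at least 2-fold went from 5.36% ± 0.51 to 15.6% ± 1.27, and the 284 falls from 12.6% ± 1.31 to 3.94% ± 0.58. These sets were chosen for their change, so the shares describe its weight and test nothing. Because every array was brought to nearly 1 mean, a gain of signal in some probe sets has to appear as a loss in others.

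Fewer probe sets were above the floor after 5 days of CP-865520. The numbers were 5916, 6157, 6271 and 5768 on the compound arrays and 6452, 6701, 6442 and 6704 on the vehicle arrays. All 4 compound arrays lay below all 4 vehicle arrays. The means were 6028 ± 228 and 6575 ± 148 (SD, n = 4 each), a difference of -546.8 with an exact two-sided permutation p = 0.0286, the smallest that 4 against 4 allows, and 0.0571 after adjustment over 4 tests. Above an intensity of 100 the difference was -506.5, with the same p-values. At 24 h the difference between CP-865520 and its vehicle was 46.2 probe sets (6434 ± 101 and 6388 ± 87.2, SD, n = 4 each, exact permutation p = 0.543). Under CP-868388 and CP-775146 the means were 5835 ± 194 and 6115 ± 88.9 at 24 h (SD, n = 4 each). At 5 days they were 6012 ± 225 (SD, n = 4) and 5806 ± 168 (SD, n = 2), and these counts were not tested. All counts against the floor here were taken on the deposited scaling only.

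Most probe sets kept their state. On all 8 arrays, 4467 were at the floor and 4751 above it, and of the latter 1027 were called higher and 1422 lower. In 2043 more vehicle than compound arrays were above the floor, and in 803 more compound than vehicle arrays. All 4 vehicle arrays at the floor with all 4 compound arrays above it, called switched on here, was found in 47 probe sets, and the reverse, switched off, in 104. A call was reached by 44 of the 47 and 91 of the 104, where 15.3% of tested probe sets were called higher and 26.8% lower. A group at the floor has no spread of its own, which lowers the spread in the test, and these probe sets differ by the way they were picked.

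Most of these switches were small steps just above the floor. The mean of the group above the floor was under 100 in 25 of the 47 switched on and 69 of the 104 switched off, with medians of 92.2 and 79.5. With all 4 arrays of the bright group above 100, 14 were switched on and 12 off, so that the excess of switching off was not seen among the brighter ones. Against the floor, 20 of those switched on rose at least 2-fold and 8 at least 4-fold, and 31 and 6 of those switched off fell by as much. These are lower bounds, taken as the geometric mean of the bright group over 50. The count switched off was 174 without vehicle replicate 3, and from 116 to 156 without any other 1 array. Leaving out an array loosens the rule, so that this count could only stay or rise.

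The brightest probe set switched on was 103944_AT. It was at 50 on every vehicle array and at 1549, 1155, 1351 and 1747 on the CP-865520 arrays. It was therefore at least 28.7-fold higher, with a mean of 1450.5 ± 255 (SD, n = 4, limma adjusted p = 1.25e-17). At 24 h it was also at 50 on all 4 vehicle arrays and lay between 539 and 827 under CP-865520. The change between the times was 1.04 on the log2 scale (SE 0.19, limma adjusted p = 0.000922). At 5 days it stood between 879 and 1468 under CP-868388 and at 1172 and 1389 on the 2 arrays of CP-775146, which share the vehicle arrays, and the CP-865520 level differed from these by a log2 of 0.19 (95% interval -0.09 to 0.47) and 0.16 (-0.18 to 0.51).

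The brightest probe set switched off was 94795_AT. It stood at 1996, 2194, 1320 and 1551 under vehicle and at 50 on all 4 CP-865520 arrays. It was at least 34.6-fold lower, from a vehicle mean of 1765 ± 401 (SD, n = 4, limma adjusted p = 5.5e-14). It was also at 50 on every array of CP-868388 and CP-775146 at 5 days. At 24 h it lay between 110 and 262 under CP-865520 and between 2100 and 3133 under vehicle, so that it was higher than the floor of 5 days on every array of the compound. The size of that difference has only a bound, because all 4 arrays of 5 days were at the floor. The fitted change between the times was -0.57 with 50 added (limma adjusted p = 0.202) and -1.12 with 1 added, when it passed (limma adjusted p = 0.04).

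The other switches were dimmer. The 6 brightest switched on had means down to 223 and the 6 brightest switched off down to 218.5. Of the 47 switched on, 33 were at the floor on all 4 vehicle arrays of 24 h as well, and 10 were then also above it on all 4 CP-865520 arrays. Of the 104 switched off, 77 were above the floor on all vehicle arrays of 24 h, and 4 were then also at the floor on all CP-865520 arrays. The change from 24 h to 5 days passed the test in 24 of the 47 and in 35 of the 104. It passed in 17.3% of all tested probe sets. Both sets were picked by their state at 5 days, and the test of the change uses those same values. The choice by itself favours a larger share that passes.

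**Figure D4:**
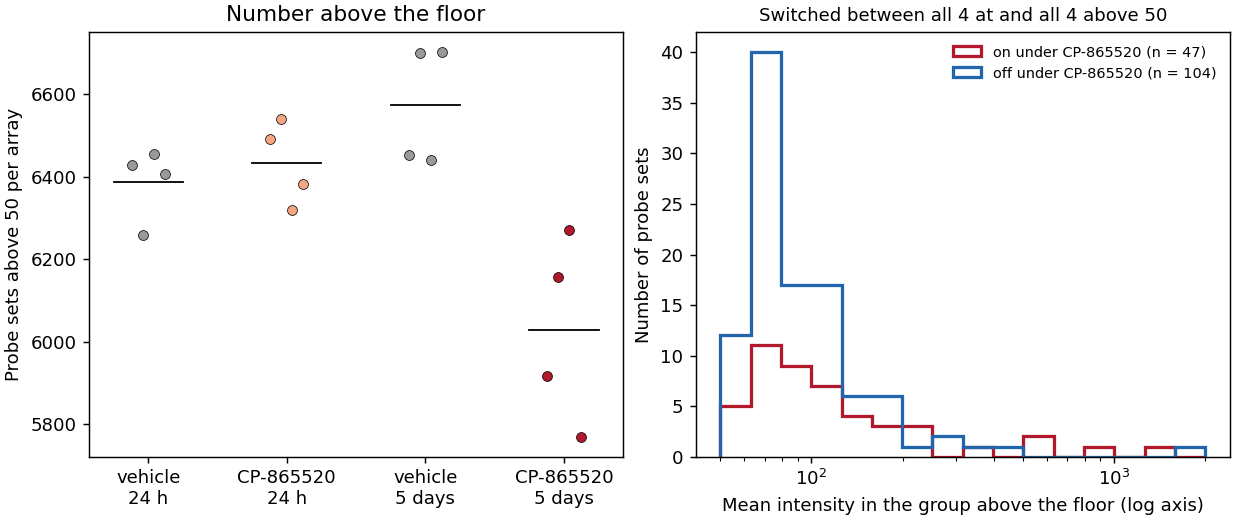
Left, the number of probe sets above 50 on each array, 1 point per array with a bar at the mean, for vehicle and CP-865520 at 24 h and 5 days, on an axis that does not start at 0. Right, the mean intensity of the group above the floor for the 47 probe sets switched on and the 104 switched off, in classes of equal width on a log axis. The 4 CP-865520 arrays of 5 days lie below all 4 vehicle arrays of that time, and most switched probe sets lie under an intensity of 200.

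The response of 5 days was larger than that of 24 h, on other vehicle arrays. At 24 h, 20.3% of tested probe sets were called, and 17.3% passed the test of the change from 24 h to 5 days. Of the 264 rises of at least 2-fold, 187 were called higher at 24 h too and 172 were larger at 5 days by the test of the change. Of the 284 such falls, 191 were called lower at 24 h and 135 fell further. By that test 0 of these 264 and 284 had turned back, against 3 of all called rises and 13 of all called falls. The median log2 change of the 2-fold rises was 0.61 at 24 h and 1.30 at 5 days, and of the 2-fold falls -0.70 and -1.33, with the members chosen on the later values. Against the other compounds at 5 days, CP-865520 differed in 5 probe sets from CP-868388 (0.0628% of tested) and in 2 from CP-775146 (0.0251%). CP-775146 had 2 arrays at 5 days, and a difference that was not called is not shown to be absent. Of the 2-fold rises 1 was among the 5, and of the 2-fold falls 1.

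Control transcripts named in the probe set IDs were lower after CP-865520. 18S rRNA, the RNA of the small ribosomal subunit, is not polyadenylated. Its 3' probe set read 1676, 1828, 1919 and 1660 under vehicle and 243, 1023, 511 and 825 under CP-865520. The compound arrays were all lower and spread widely, with replicate 1 the lowest. The means were 1771 ± 124 and 650.5 ± 344 (SD, n = 4 each) and the log2 change was -1.54 ± 0.32 (SE, limma adjusted p = 0.000331). Its 5' and middle probe sets fell by 1.60 and 1.14 on the log2 scale (limma adjusted p = 0.000129 and 0.00829), again without overlap. Without the arrays numbered 1 of both groups the middle probe set was at -0.84 and its call was lost (limma adjusted p = 0.0965). At 24 h the 3 probe sets had changes of 0.05, 0.10 and 0.51 that did not pass, and the change between the times passed in each, at -1.59, -1.70 and -1.65. The vehicle level itself was not the same at both times: the 3' probe set stood at 375.8 ± 86.8 on the 24 h vehicle arrays and 394 ± 115 under CP-865520 (SD, n = 4 each), means below every vehicle array of 5 days. This difference between the vehicle groups was not tested.

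Beta-actin, a protein of the cytoskeleton, fell along its whole length. The 5' probe set read 4813, 3312, 2769 and 4069 under vehicle and 896, 2209, 1516 and 1560 under CP-865520, and the middle one 6355, 4713, 4327 and 5900 against 1290, 2646, 1825 and 1705. Neither overlapped, and CP-865520 replicate 1 was again the lowest. The log2 changes were -1.28 ± 0.29 and -1.52 ± 0.29 (SE, limma adjusted p = 0.000901 and 0.000146), larger than the -0.81 of the 3' probe set. The glycolytic enzyme Gapdh changed more evenly. Its 5', middle and 3' probe sets were at -1.04, -1.04 and -0.92 (limma adjusted p = 0.000594, 8.4e-05 and 0.00012), with vehicle means of 2.04, 2.05 and 1.89 times the compound means.

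Pyruvate carboxylase, which supplies oxaloacetate for gluconeogenesis and the citric acid cycle, had smaller changes. The 3' probe set stood at 904, 755, 781 and 777 under vehicle and 631, 700, 647 and 571 under CP-865520, and the 5' one at 321, 314, 263 and 325 against 134, 220, 190 and 147. Both were without overlap and passed, at -0.31 and -0.69 (limma adjusted p = 0.0318 and 0.0431), but alternative settings ended these calls in 10 and 13 of 22 cases, with adjusted p up to 0.301 and 0.517. The 2 middle probe sets, at -0.67 and -0.35, did not pass.

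Other named controls did not follow this pattern. The probe set whose ID reads MURFAS rose from 50, 81, 82 and 84 to 220, 133, 163 and 223, a log2 change of 0.91 ± 0.13 (SE, limma adjusted p = 3.72e-06). The transferrin receptor, which takes iron into cells, read 50, 60, 50 and 54 at its 3' end under vehicle and 50, 71, 90 and 55 under CP-865520, close to the floor (0.16, limma adjusted p = 0.13). It was called higher, at between 0.23 and 0.33, under all 4 other scalings, with the integrity covariate and without CP-865520 replicate 1. The control probe sets for interleukins 2, 4 and 10 were at the floor on all 8 arrays. The B2 repeat, a short interspersed element with many copies in the mouse genome, had log2 changes of -0.07 and -0.01 at its pair of probe sets, and the B1 repeat 0.14, and none passed.

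**Figure D5:**
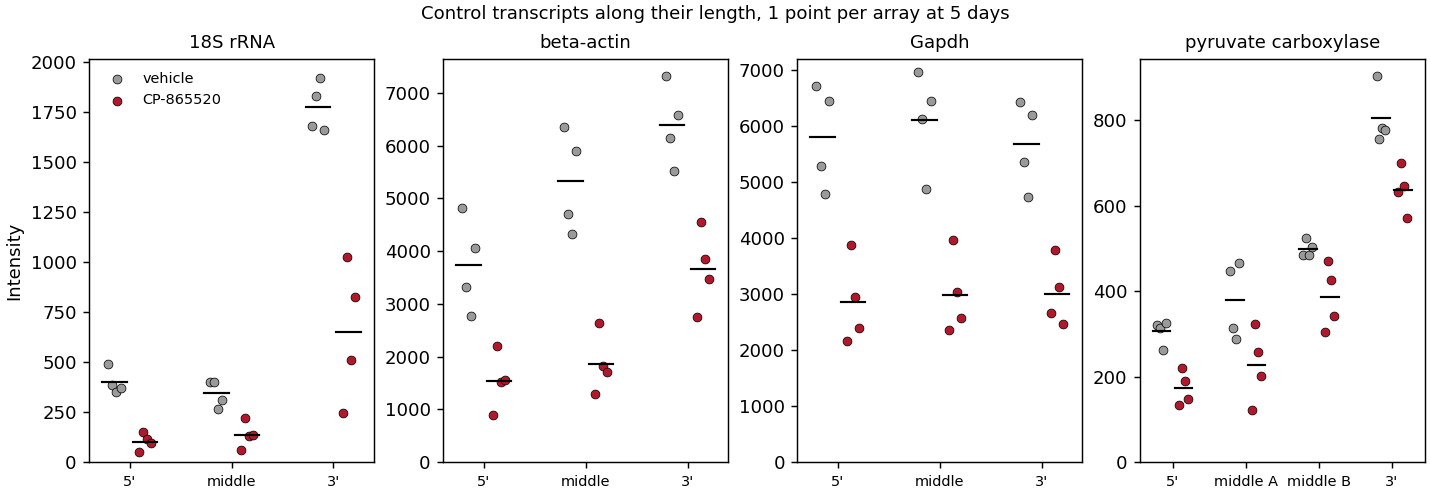
Intensity of control probe sets at the 5' end, the middle and the 3' end of 18S rRNA, beta-actin, Gapdh and pyruvate carboxylase, 1 point per array and a bar at the mean of 4, with vehicle in grey and CP-865520 in red. Vehicle arrays lie above the CP-865520 arrays at every position except the first middle probe set of pyruvate carboxylase, where the groups overlap.

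The 5'/3' ratio of these transcripts is a check on the RNA. Labelling starts at the 3' end, so that a broken template or an incomplete reaction lowers the ratio. For beta-actin the log2 ratio was -0.61, -0.89, -0.99 and -0.70 under vehicle and -1.62, -1.04, -1.35 and -1.16 under CP-865520. Every compound array was lower than every vehicle array, with means of -0.80 ± 0.18 and -1.29 ± 0.25 (SD, n = 4 each, exact permutation p = 0.0286). Pyruvate carboxylase gave -1.49, -1.27, -1.57 and -1.26 under vehicle and -2.24, -1.67, -1.77 and -1.96 under CP-865520, also without overlap (-1.40 ± 0.16 and -1.91 ± 0.25, SD, n = 4 each, exact permutation p = 0.0286). These p-values are the smallest that the design allows, and after adjustment over 8 control transcripts each was 0.114.

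Gapdh had the ratios 0.06, -0.02, 0.01 and 0.06 under vehicle and -0.30, 0.03, -0.08 and -0.04 under CP-865520. The groups overlapped (means 0.03 ± 0.04 and -0.10 ± 0.14, SD, n = 4 each, exact permutation p = 0.114), and CP-865520 replicate 1 was the lowest, as it was for beta-actin and pyruvate carboxylase. The 18S rRNA ratio was -2.16 ± 0.29 under vehicle and -2.59 ± 0.46 under CP-865520 (SD, n = 4 each, exact permutation p = 0.171), with several intensities near the floor. With 50 added to each intensity this difference was -0.07 (exact permutation p adjusted over 8 = 0.886), while those of beta-actin and pyruvate carboxylase kept their exact p.

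The bacterial and phage controls, which are added to the hybridisation and do not come from the liver RNA, had no called change. BioB, BioC, BioDn and Cre had log2 changes from -0.28 to 0.08 over their 9 probe sets with IDs ending in _AT. None passed (limma adjusted p from 0.114 upwards). Their 5'/3' ratios differed by 0.40 for BioB (exact permutation p = 0.0571), -0.07 for BioC, 0.08 for BioDn and 0.01 for Cre.

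The fall in the 5'/3' ratios moved with the same groups as the response. With the mean of the standardised ratios of Gapdh, beta-actin and pyruvate carboxylase as a covariate, 2843 probe sets were called (1128 higher, 1715 lower), among them 1038 of the 1218 rises and 1634 of the 2137 falls. Of the 264 rises and 284 falls of at least 2-fold, 263 and 283 were still called in the same direction, but with the covariate the number of calls at 2-fold dropped to 230 rises and 214 falls. Without CP-865520 replicate 1, which had the lowest ratios of these 3 transcripts, 2922 were called, 264 and 283 of these probe sets in the same direction, and 239 rises and 272 falls were at least 2-fold. The shares called higher and lower above 3000 were 44.7% and 30% with the covariate. The part of RNA integrity in the many small falls was not tested beyond this covariate, which is built from transcripts that fell themselves.

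The arrays of a group resembled each other closely. Over the tested probe sets the lowest correlation of log2 values within CP-865520 was 0.977 and within vehicle 0.97, while the highest between the groups was 0.935, a description across probe sets that share their levels. The median SD of a probe set was 0.14 under CP-865520 and 0.15 under vehicle. Leaving out any 1 array gave between 2922 and 3342 calls.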

How the data were processed

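RNA from livers was labelled with biotin and hybridised to 1 array per mouse. The deposited file holds linear intensities, all whole numbers between 50 and 29064. Per the submitters' processing notes the authors used MAS5. The software version, the target of the scaling and the origin of the floor were not given in the sources used here. All 30 columns were matched to samples by accession, and groups were read from the titles. Detection calls were not used here.

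Intensities were taken as log2(value + 50). A probe set other than a control was tested if 2 or more of the 30 arrays exceeded 50, which is also the table's median. This left out 4459 of 12422, and a probe set dim in one group may have passed through another. Group means of all 8 groups were fitted with limma 3.58.1 in R 4.3.3 (lmFit, eBayes with trend), two-sided, with Benjamini-Hochberg adjustment and a threshold of 0.05. Mouse and spike controls were tested in the same model with these probe sets added. Counts per array and control ratios were set against vehicle with an exact permutation test, two-sided (scipy 1.17.1). Alternatives covered the pseudocount, filter, scaling, arrays fitted, spread, an RNA integrity covariate and leaving out each array. The fit was tested on simulated data kept from going under the floor, where fewer of the lowered probe sets than of the raised ones were recovered. Plots used matplotlib 3.10.9.

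No table used here pairs probe sets with genes, so the planned pathway lists, marker lists and promoter motif were not applied. The rule for named probe sets allowed 2 IDs in each direction: the largest rise and fall with at most 2 arrays at the floor, and the brightest switched on and off. Members, lists and tests were chosen with earlier results of these data known. The number of arrays limits the precision.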

Additional observations from a re-analysis of the deposited data

Results flagged for a closer look

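Over 80 sets of 4 arrays tested, 2 held an array far from the other 3, where chance gives about 1 in 20. Vehicle replicate 1 stood at 927 in the 5' probe set of the spiked BioDn control, with the others between 1278 and 1318. It stood at 50 in the MURFAS control, with the others between 81 and 84.

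For some probe sets the response to CP-865520 differed between 24 h and 5 days by the limma test of that difference. These were 97316_AT (0.70, adjusted p = 0.00519), 99083_AT (-2.63, adjusted p = 4.06e-07) and 103944_AT (1.04, adjusted p = 0.000922), each kept in all 19 alternatives. For 18S rRNA the differences were -1.59 at the 3' end, -1.70 at the 5' end and -1.65 in the middle (limma adjusted p = 0.0184, 0.00996 and 0.0211). The 5' call was kept in all 19 alternatives, and the 3' and middle calls were lost without the arrays numbered 1 of both groups (0.0583 and 0.0882), the middle one also without CP-865520 replicate 1 (0.0564). For Gapdh they were -0.88 at the 3' end, -0.93 at the 5' end and -1.11 in the middle (limma adjusted p = 0.0162, 0.0461 and 0.00722). Of 19 alternatives, 11 ended the 5' call (the highest adjusted p was 0.165), 1 ended the 3' call and 0 the middle call.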

How the results depend on the processing

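The total of 3355 calls stayed within 1.5 times under 22 of 23 alternatives. With the replicate number as a block in the 8-array fit it was 1944, with 837 rises and 1107 falls. No label says whether the replicate numbers pair the arrays. The correlations of same-numbered deviations were -0.12, -0.06, -0.10 and -0.11 and were not tested. In the 8-array fit without the block 2739 were called. At an adjusted p under 0.01 that fit left 1680 calls, and 308 with the block. Rises numbered 2005 with median centring and 2620 when arrays were centred on the tested probe sets, when falls numbered 1240 and rises of at least 2-fold 402. Falls of at least 2-fold numbered 511 with a pseudocount of 1 and 534 by the ratio of mean intensities. An adjusted p under 0.01 left 2459 calls. Requiring intensities above 100 left 14 switched on and 12 off. Without 1 array the counts were 51 to 64 and 116 to 174, under a looser rule that cannot lower them. The difference in probe sets above the floor ran from -627.8 to -460.1 without 1 array, a design of 3 against 4 that cannot reach 0.05. Calls of the 4 traced probe sets and of all 3 Gapdh probe sets were kept in all 22 alternatives. The 5' beta-actin call was lost with the block (limma adjusted p = 0.0596). Centring on the tested probe sets, the ratio of means, the stricter threshold and the joint removal of both arrays numbered 1 were chosen after the data were seen. Signals at the floor set the limit for dim probe sets.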

Other observations

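Some IDs carry a letter before their ending, which on this kind of array marks how the probes were chosen and which is read here only as a label. Of those with the suffix _R, 429 of 901 were tested, and 6.29% were called higher and 29.1% lower. Of those with _S, 241 of 371 were tested, with 21.6% higher and 29% lower. IDs without a suffix gave 15.6% and 26.6% of 6346 tested. These shares were not tested against each other.

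Of the 6 beta-actin and Gapdh control probe sets whose IDs end in _ST, 4 were called lower. Of all tested probe sets, 26.8% were. That ending is read here only as a label. The 5' _ST probe set of beta-actin stood at 77, 116, 125 and 143 under vehicle and 50, 73, 61 and 64 under CP-865520 (log2 change -0.55, limma adjusted p = 1.3e-05). The middle one of Gapdh stood at 164, 196, 182 and 200 against 54, 124, 92 and 151 (-0.64, limma adjusted p = 0.00614). The first was called in all 22 alternatives, and the second was lost with the integrity covariate (-0.38, limma adjusted p = 0.0695). The middle one of beta-actin (-0.36, limma adjusted p = 0.0044) was lost in 3 of 22 and the 5' one of Gapdh (-0.71, limma adjusted p = 0.0106, with overlap) in 7. The 3' _ST probe sets of both overlapped and did not pass (-0.38 and -0.25, limma adjusted p = 0.0513 and 0.287). For that of beta-actin, 6 of 22 alternatives gave a call.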
